A study of Caenorhabditis elegans with 2 samples.

Results

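Histone genes of Caenorhabditis elegans were examined for occupancy by EFL-1, an E2F-family transcription factor, in first-stage (L1) larvae. The members were all protein-coding genes of the WBcel235 annotation whose symbol starts with his-, which gave 72 genes of the 19973 protein-coding genes on the nuclear chromosomes. They comprise 17 genes for the core histone H2A, 16 for H2B, 15 for H3, 16 for H4, 5 for H3.3-type proteins and 1 for the linker histone H1. The remaining 2, his-39 and his-73, are annotated only as histone-domain proteins.

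All samples belonged to 1 group, made up of biological replicates 1 and 2 as the labels call them, from mixed-sex whole larvae of strain YL424. The strain carries the unc-119(ed3) mutation on chromosome III and the insertion vrIs68, in which EFL-1 fused to GFP and FLAG is driven by the efl-1 promoter and followed by the efl-1 3' UTR, together with a working copy of unc-119. Chromatin immunoprecipitation and sequencing was directed at the tagged EFL-1, with the antibody given in the labels only as efl-1. There was no second strain, stage or treatment, and the endogenous efl-1 gene was not said to be removed. Since whole larvae were used, weak occupancy in many cells and strong occupancy in few cells cannot be told apart.

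E2F factors bind promoters of genes needed for S phase, and EFL-1 is the E2F subunit of the worm DREAM complex, which holds cell-cycle genes in check. Core histone genes of animals that are used during replication lie in clustered, near-identical copies without introns, and their mRNAs end in a stem-loop in place of a poly(A) tail. Variants such as H3.3 are deposited outside of S phase as well, and their genes lie apart and contain introns. Histone genes are known E2F-regulated genes in other animals.

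Peak lists of 4 kinds were read, all in the ce11 build, which is the WBcel235 sequence. The reproducible list, derived by the authors from both replicates, held 3824 peaks. The pooled list held 28550 entries, the replicate 1 list 30000 and the replicate 2 list 28686, and these 3 lists include background, so that an entry in them is not a call. Strength is the authors' own score for each entry, whose scale is not stated and which can be compared only within a list. The replicates were unlike: 1196 entries of replicate 1 and 12800 of replicate 2 had a deposited −log10 q above 2. The promoter of a gene was taken to reach from 500 bp before an annotated start to 100 bp past it. A gene had a promoter entry when a summit fell inside this window for at least 1 of its starts. For 65 of the 72 his genes the outermost annotated start is also the start of the coding sequence. For his-24, his-35, his-37, his-41, his-57, his-71 and his-74 it is not, so distances from the start are not strictly comparable between members.

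Reproducible EFL-1::GFP peaks were found at few histone genes, all outside the large histone clusters, and most histone promoters are repeated sequence in which few genes of any kind had a peak. A promoter peak was present at 6 of the 72 his genes (8.33%), beside 14.8% of all protein-coding genes. In the pooled list 14 his genes (19.4%) had a promoter entry, beside 33.2% of all genes. Replicate 1 gave 8 his genes (11.1%) beside 30.1% of all genes, and replicate 2 gave 16 (22.2%) beside 33.9%. The share of his genes was below that of all genes in each of the 4 lists. Among promoters whose sequence is nearly all unique in the genome (at least 90% of their 36-base words found once) the order was the reverse: 6 of 12 his genes (50%), beside 15.6% of all genes, had a reproducible peak, and 9 of 12 (75%), beside 35.2% of all genes, had a pooled entry. The size of this difference depended on the cut and on the word length. With all 36-base words unique, 2 of 7 his genes (28.6%), beside 16.4% of all genes, had a reproducible peak. At the 90% cut with 50-base words, 6 of 24 his genes (25%), beside 15.4% of all genes, had a reproducible peak. A pooled entry was present at 12 of 24 (50%), beside 34.8% of all genes. The 6 genes are not independent, since his-67 and his-68 share a peak, as do his-35 and his-41. By 36-base words, 43 his genes had promoters with under 50% unique words, a range in which 0.876% of all genes had a reproducible peak. These are counts without a test, because copies within a cluster share sequence and are not independent.

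**Figure D1:**
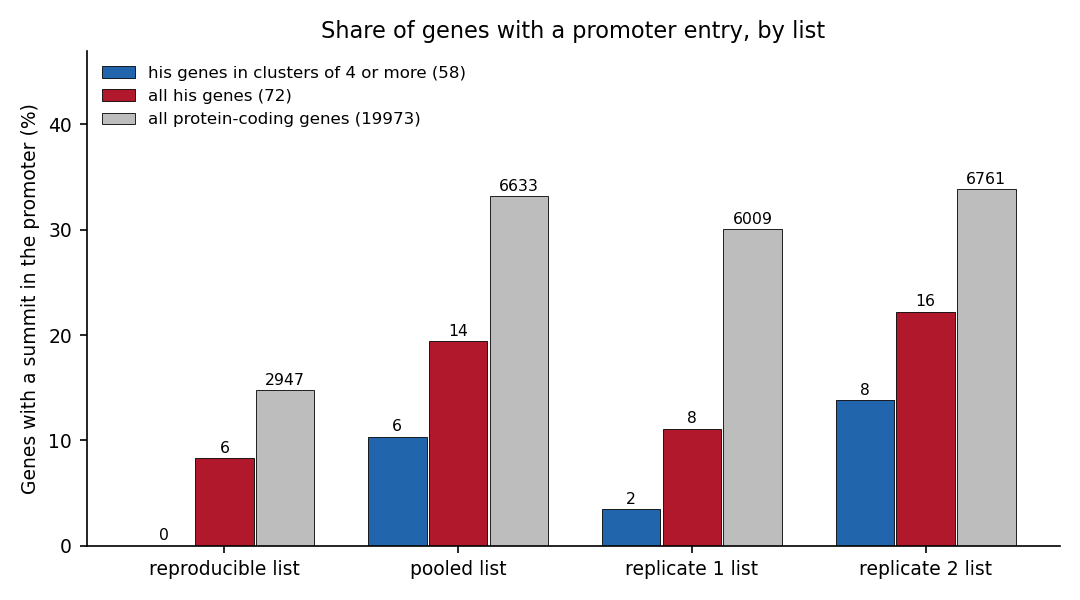
Share of genes (%) with a summit in the promoter in each of the 4 lists, for his genes in clusters of 4 or more, all his genes and all protein-coding genes, with the number of genes above each bar. The bars of all his genes stand below those of all protein-coding genes in every list, at 8.33% against 14.8% in the reproducible list.

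The his genes were chained into clusters wherever neighbouring gene bodies lay within 5 kb. This placed 67 genes in 14 clusters and left 5 genes alone, namely his-24, his-71, his-72, his-73 and his-74. Among the 67 clustered genes 5 (7.46%) had a reproducible promoter peak, and among the 5 isolated genes 1 had one. The share over all protein-coding genes was 14.8%. The clusters differed in size, and after the values had been seen they were divided into 10 clusters of 4 or more genes, with 58 genes, and 4 clusters of 2 or 3 genes, with 9. A reproducible promoter peak was found at 0 of the 58 genes in the large clusters, beside 14.8% of all genes. It was found at 5 of the 9 in the small clusters and at 1 of the 5 isolated genes. In the small clusters his-67 and his-68 share a peak, as do his-35 and his-41. The pooled list had a promoter entry at 6 of 58, 5 of 9 and 3 of 5 genes of these groups, beside 33.2% of all genes. This division was drawn with the peaks known, so the contrast between large and small clusters is a description.

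**Figure D2:**
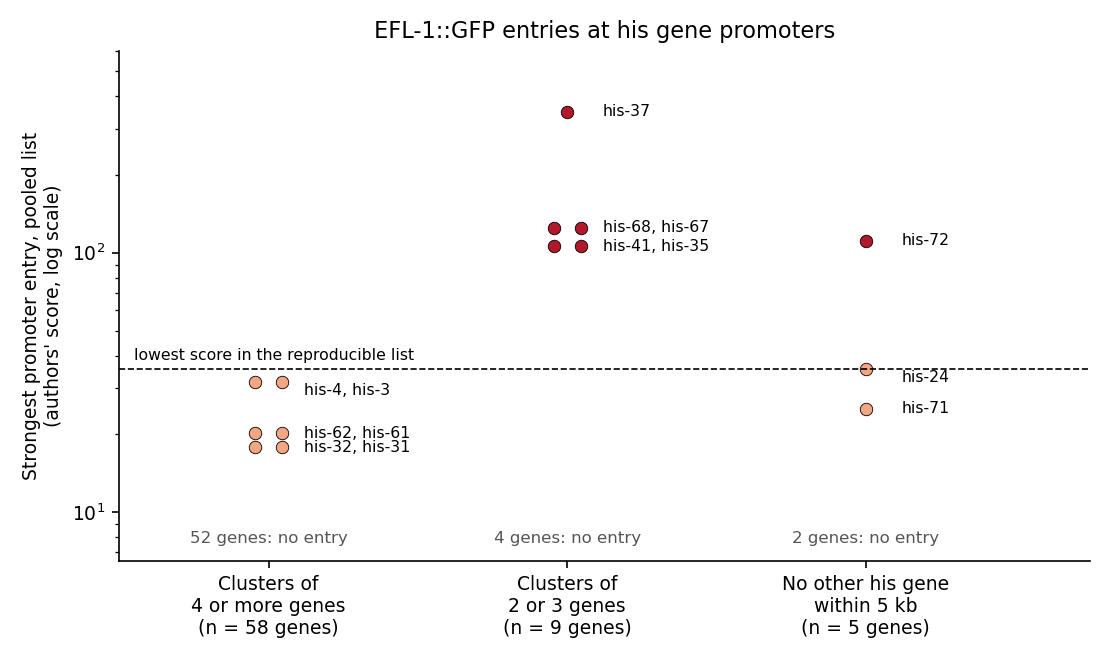
Authors' score of the strongest promoter entry of each his gene in the pooled list (log scale), by arrangement, with genes of the same peak side by side and the dashed line at the lowest score of the reproducible list. The 3 entries of the large clusters lie between 17.8 and 31.6, below the line at 35.7, whereas the small clusters hold entries from 106 to 349.

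The 6 genes shared 5 reproducible peaks, of which his-37 held the strongest. his-37 encodes histone H4 and, unlike most H4 genes, contains an intron. Its peak at V:9546890-9547117 had its summit 82 bp upstream of the start, in intergenic sequence, and scored 349 in the pooled list, at rank 749. The same site scored 52.8 in replicate 1 and 287 in replicate 2, with a −log10 q of 3.22 in replicate 1 and of 4.22 in replicate 2. his-37 was the only member whose peak was backed in both replicate lists by an overlapping entry of −log10 q over 2, which held for 1 of 72 his genes (1.39%) beside 6.93% of all genes. This support rule was added after the data had been seen. The 30 bases around the summit on the plus strand, V:9547008-9547037, are shown because they carry the strongest his peak, with the summit base in capitals.
his-37 summit: tgtccccgcagggtgGttcaatctgactcc

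The gene pair his-35 and his-41 lies in the same small cluster, on the left of his-37. his-35 encodes H2A and his-41 encodes H2B, each with an intron, and they are transcribed away from each other. Their shared peak at V:9545279-9545614 had its summit 159 bp upstream of his-35 and 89 bp upstream of his-41. It scored 106 in the pooled list at rank 1852 and 93.5 in replicate 2, and replicate 1 had no entry there. The summit sequence of this pair, V:9545432-9545461 on the plus strand with the summit base in capitals, is given for comparison with that of his-37.
his-35/his-41 summit: tctctcggtgtgggcGgagtctagttccgc

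his-72 encodes an H3.3 protein, the replication-independent form of H3, and was the isolated gene with a reproducible peak. It held 2 reproducible summits. The stronger, at III:12369008-12369343, lay 126 bp upstream of the start and scored 111 in the pooled list at rank 1778, with 11.2 in replicate 1 and 94.0 in replicate 2. The entry of replicate 1 had a −log10 q of 0.423. The weaker, at III:12368345-12368680, lay inside an intron of his-72, over the small nucleolar RNA gene Y49E10.36, and 349 bp upstream of an internal his-72 start. It scored 59.3 in the pooled list and 55.0 in replicate 2, and replicate 1 listed no summit inside the gene. Which of these genes the intronic summit belongs to was not tested. The bases around both summits on the plus strand, III:12369161-12369190 upstream and III:12368498-12368527 in the intron, are shown with the summit base in capitals.
his-72 upstream summit: actcagccaacacgaAgacacgtgacgaca
his-72 intronic summit: aaagcgcgcgcacccTgacaccaccgcgtt

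Another divergent pair, his-67 for H4 and his-68 for H2A, forms a small cluster of its own on chromosome I. Its peak at I:9988961-9989071 had its summit 248 bp upstream of his-67 and 121 bp upstream of his-68. The score was 125 in the pooled list at rank 1631, with 20.1 in replicate 1 and 100.3 in replicate 2. In replicate 1 the entry had a −log10 q of 1.49, under the value of 2 used above. Both replicates listed the site, at rank 1477 in replicate 1 and rank 1774 in replicate 2.

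The strongest peaks of these 6 genes had a median score of 118, below the median of 169 over the 2947 protein-coding genes with a reproducible promoter peak. Over all 5 peaks, each counted once and the weaker his-72 peak of 59.3 included, the median was 111. The score of his-37, at 349, was the one above the all-gene median. No protein-coding gene other than a his gene had any of these 5 summits in its promoter.

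The next strongest member fell just short of the reproducible list. his-24, the gene of this family for linker histone H1, had a pooled entry at X:14489899-14490234 with its summit 27 bp upstream of the start and a score of 35.66, at rank 3827. The lowest score in the reproducible list was 35.71, so that his-24 missed it by 0.0424. In replicate 2 the same position scored 43.6 at rank 3225. The only promoter entry of replicate 1 scored 7.12 and lay 494 bp upstream, so replicate 1 gave no entry at the summit. The summit falls within an intron of the noncoding RNA gene M163.19, and its bases on the plus strand, X:14490052-14490081, are shown because this member stood closest to the limit.
his-24 summit: tagaaattgggtataTaagagaacgagagg

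The H3.3-type genes differed among themselves. his-71, which like his-72 encodes an H3.3 protein and has 3 exons, had a pooled entry 192 bp upstream of its start with a score of 25.1, an entry of 9.71 in replicate 1 and none in replicate 2. his-74, an H3.3-like gene, had no pooled entry and a single one of 3.69 in replicate 2, 267 bp upstream. his-69 and his-70, a pair of intronless H3.3-like genes on chromosome III, had no promoter entry in any list. The isolated gene his-73 and the H4 and H3 pair his-38 and his-40 likewise had no promoter entry in any list. Among the H3.3-type genes the reproducible peak was thus at 1 of 5, beside 14.8% of all genes. A pooled entry was present at 2 of 5, beside 33.2% of all genes.

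By histone class, a reproducible promoter peak was found at 2 of 17 H2A genes (11.8%) and 1 of 16 H2B genes (6.25%). It was found at 0 of 15 H3 genes and 2 of 16 H4 genes (12.5%). The H3.3-type genes had 1 of 5 (20%), and the H1 gene and the histone-domain genes had none. Over all protein-coding genes the share was 14.8%, and with so few genes the H2A and H4 shares stood close to it. That share is not a like comparison, because most promoters of these classes are repeated sequence. The median of unique 36-base words was 0% for H2A and for H2B, 7.42% for H3 and 32.5% for H4. Over all genes it was 100%. All of the H3 genes lay in large clusters except his-40. By gene structure, of the 8 genes with an intron 4 had a reproducible peak and 6 a pooled entry, whereas of the 64 without one 2 had a reproducible peak and 8 a pooled entry, beside 14.8% and 33.2% of all genes. The intron-containing genes are his-24, his-35, his-37, his-41, his-57, his-71, his-72 and his-74, of which only his-57 lies in a large cluster. Among the 14 genes outside the large clusters, 4 of the 7 with an intron and 2 of the 7 without one had a reproducible peak. In the large clusters 0 of the 57 genes without an intron had one, and his-57 had none.

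Read across whole clusters, the large arrays held no reproducible summit within 500 bp of their spans, in 10 of 10 clusters. With genes chained over 20 kb in place of 5 kb, 1 of 9 clusters of 4 or more held a reproducible summit. That cluster joined the his-47 and his-55 groups on chromosome IV around a peak scoring 38.5, which lay 6382 bp from the start of his-45 and 5293 bp from that of his-55. A pooled summit lay within these bounds in 4 of the 10. For genes of the large clusters the nearest reproducible summit was at a median distance of 16671.5 bp, with a range of 1136 to 88595 bp. The median was 248 bp for the small clusters and 3683 bp for the isolated genes, and 9108 bp over all protein-coding genes. The closest approach, 1136 bp, was a peak scoring 89.8 upstream of his-42, an H3 gene at the end of the 13-gene cluster on chromosome II.

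**Figure D3:**
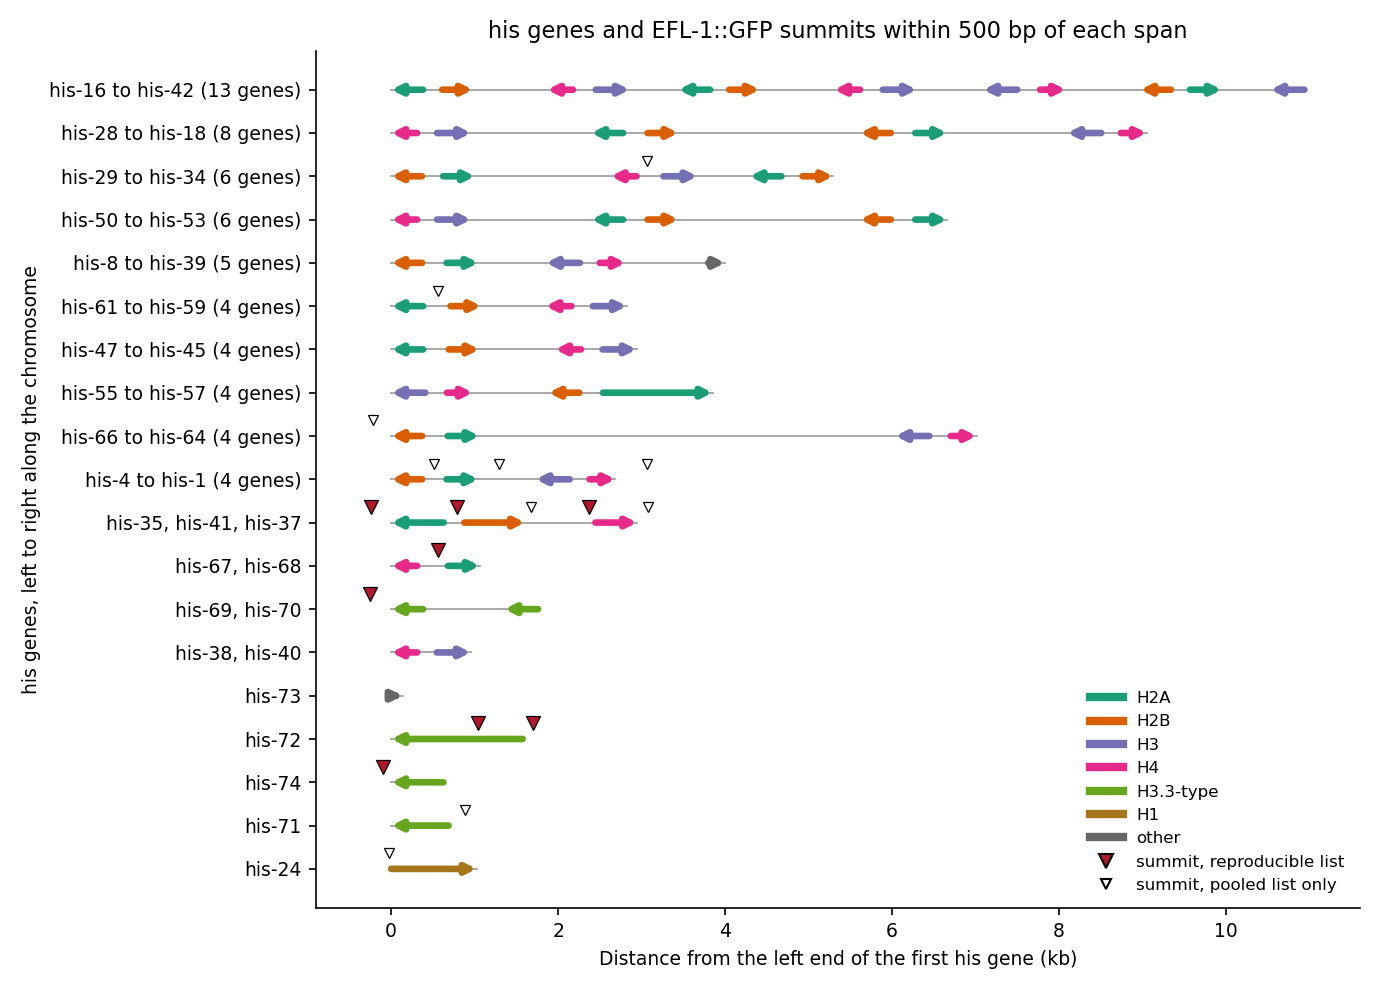
Positions of his genes, drawn as arrows coloured by histone class and pointing in the direction of transcription, and of EFL-1::GFP summits within 500 bp of each span, in kb from the left end of the first his gene. Filled triangles mark reproducible summits, which appear at small clusters and isolated genes and at 0 of the 10 clusters of 4 or more genes.

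Most clustered genes are arranged in divergent pairs that share an upstream interval, which is where a promoter summit would lie. There were 31 such pairs, with intervals of 227 to 368 bp and a median of 258 bp. Of the 28 pairs in large clusters, 0 had a reproducible summit in the interval, 3 a pooled summit, 1 a replicate 1 summit and 4 a replicate 2 summit. Of the 3 pairs in small clusters, 2 had a reproducible summit, his-67/his-68 and his-35/his-41. The 2 sets of pairs are not alike in sequence. Of the 58 genes in large clusters, 43 had promoters with under 50% unique 36-base words, and none of the genes in small clusters did. In that range 0.876% of all genes had a reproducible peak, and the contrast between the pairs was not tested.

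The 3 pooled entries of the large clusters each lay between the genes of a divergent pair. The strongest was between his-4 for H2B and his-3 for H2A on chromosome V, with a pooled score of 31.6 and 29.1 in replicate 2. Between his-61 for H2A and his-62 for H2B on chromosome IV the pooled score was 20.2, with 21.0 in replicate 2. Neither pair had an entry in replicate 1. Between his-31 for H4 and his-32 for H3, also on chromosome IV, the pooled score was 17.8, with 7.22 in replicate 1 and 16.9 in replicate 2. A further pair, his-2 for H3 and his-1 for H4, had an entry in replicate 2 alone, with a score of 4.998. The 3 pooled scores stood under the lowest reproducible score of 35.7. The other 50 genes of the large clusters had no promoter entry in any of the 4 lists.

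Near-identical copies raise the question of how much of each promoter can be told from other places in the genome. The measure used was the percentage of 36-base words of the promoter that occur once in the nuclear genome, counting both strands. Its median was 0% over the 58 genes of the large clusters (range 0 to 90.6%), 97.3% over the 9 genes of small clusters (83.9 to 100%) and 100% over the 5 isolated genes (85.2 to 100%). Over all protein-coding genes the median was 100%. For read length and for the handling of reads with several matches, nothing was given in the sources used here. The 36-base word is thus a yardstick, not the reads of the study, and 50-base words were used beside it.

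The promoters with the fewest unique words had no entries at all. In 33 his genes, all in large clusters, no 36-base word of the promoter was unique, and 0 of them had a promoter entry in any list. Over all protein-coding genes 231 had such promoters, these 33 included, and among those 231 the reproducible list had 0 entries and the pooled list 0. At under 50% unique words there were 43 his genes, again with 0 entries in any list. In the same range 571 of all genes had a reproducible peak in 0.876% and a pooled entry in 3.33%. These 43 genes made up 59.7% of the his genes, whereas 2.86% of all genes lay in that range. Whether reads from these promoters entered the lists was not tested, since the lists hold no reads.

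The sequences just upstream of 4 H3 genes in the 13-gene cluster on chromosome II show this identity. his-13, his-9 and his-25 each have a 250-bp upstream sequence that is found at 3 his genes, while that of his-42, at the end of the cluster, is found once. The last 30 bases before each annotated start are given on the strand of the gene, at II:13820180-13820209 for his-13, II:13823618-13823647 for his-9, II:13825260-13825289 for his-25 and II:13828698-13828727 for his-42.
his-13: cagtccccacggattaccaaccaaagcatc
his-9: cagtccccacggattaccaaccaaagcatc
his-25: cagtccccacggattaccaaccaaagcatc
his-42: cattccacgcggatttccaaccaaaccaac
The first 3 are identical over these bases, and their promoters had 0% unique 36-base words, against 88.2% for his-42. None of the 4 genes had a promoter entry in any list. Over the large clusters 33 of 58 genes shared their 250-bp upstream sequence with another his gene, and the 58 coding sequences comprised 36 distinct ones.

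Low uniqueness did not cover all genes of the large clusters. With 36-base words, 14 of them had 50 to 90% unique words and 1, his-62, had more. Among the 14, 0 had a reproducible peak and 5 a pooled entry, beside 10.2% and 21.8% of all genes in that range. With 50-base words, 10 genes of the large clusters had at least 90% unique words, of which 0 had a reproducible peak and 4 a pooled entry. The other his genes at that level numbered 14, of which 6 had a reproducible peak and 8 a pooled entry. Among all genes at that level 15.4% had a reproducible peak and 34.8% a pooled entry. Since 8 of the 10 genes lie in divergent pairs that share an upstream interval, 0 of 10 beside 15.4% is a small count, and no difference was tested.

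**Figure D4:**
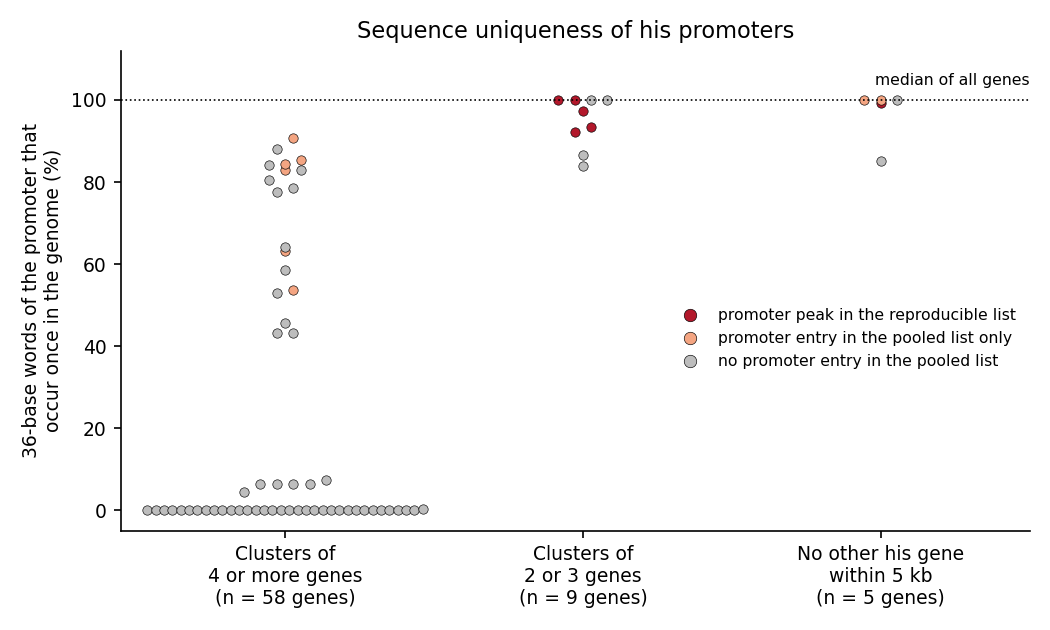
Percentage of 36-base words of each his promoter that occur once in the genome, by arrangement, with points coloured by whether the promoter held a reproducible peak, a pooled entry only or neither. No gene under 50% has an entry, the entries of large clusters lie between 53.7% and 90.6%, and the reproducible peaks lie between 92.2% and 100%.

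Motif matches were read from the reference sequence from 250 bp upstream to 50 bp downstream of each gene start. The E2F core was sought as TTCCCGC or TTCGCGC and the cell-cycle homology region (CHR), through which DREAM contacts promoters, as TTTGAA or TTCGAA. Both strands were searched, and matches of different motifs were allowed to overlap. An E2F core was present in 8 of 72 his promoters (11.1%) and in 5.03% of all protein-coding promoters. Of the 8, 6 lie on chromosome IV in divergent pairs that share a core within repeated sequence, so these promoters are not independent. A CHR core was present in 13 his promoters (18.1%) and in 69.0% of all. At the summits themselves, 0 of the 5 reproducible his peaks had an E2F core within 50 bp, beside 10.1% of all 3824 peaks. A CHR core lay within 50 bp of 1 of the 5, that of his-67/his-68, beside 34.4% of all peaks.

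The 8 promoters with an E2F core were those of his-37, his-72 and 3 H2A and H2B pairs on chromosome IV, his-47/his-48, his-57/his-58 and his-65/his-66. Each pair shares 1 core in the interval between its genes. The 30-base windows are given on the strand of the named gene with the core in capitals, at V:9546919-9546948 for his-37, III:12369093-12369122 for his-72, IV:11324643-11324672 for his-47, IV:11340179-11340208 for his-57 and IV:11400859-11400888 for his-65.
his-37: ctgcacaacctTTCCCGCgtcatcgaatcc
his-72: cttcttactcgTTCCCGCcccgccccgaca
his-47: aggggcggagcTTCCCGCggggacacatta
his-57: aggggcggagcTTCCCGCggggacacatta
his-65: aggggcggagcTTCCCGCggggacacatta
The core of his-37 begins 175 bp before the start, while the summit lay 82 bp before it. In his-72 the core begins 61 bp before the start and the upstream summit lay 126 bp before it. The windows of his-47, his-57 and his-65 were identical, and these 3 genes and their partners had at most 0.177% unique 36-base words and no promoter entry in any list. Whether EFL-1::GFP occupied these identical cores cannot be read from the lists.

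Strong reproducible peaks lay beside his-69, his-35 and his-74 in promoters of other genes. These neighbours were named after their values had been seen. A peak scoring 829 at rank 420 lay 259 bp downstream of his-69, and its summit was 125 bp upstream of rcq-5, which encodes a RecQ DNA helicase. The peak scored 150.1 in replicate 1 and 674 in replicate 2. A peak scoring 1004 at rank 363 lay 238 bp downstream of his-35 and 195 bp upstream of mdf-1, which encodes a spindle checkpoint protein, with 164 in replicate 1 and 843 in replicate 2. A peak scoring 284 at rank 866 lay 102 bp downstream of his-74 and 18 bp inside the start of ccch-3, with 46.5 in replicate 1 and 234.6 in replicate 2. All 3 were present in both replicates. The peaks near his-69 and his-35 scored above every his promoter peak, and the one near his-74 stood below that of his-37.

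Other genes of histone biology were set beside the his family, on lists chosen with earlier results of these data known. Among 11 histone genes with other symbols 4 (36.4%) had a reproducible promoter peak, beside 14.8% of all genes, with a median score of 411. htz-1, for the variant H2A.Z, scored 1155 with 140.2 in replicate 1 and 1014 in replicate 2, and its peak also lay in the promoter of wapl-1. hcp-3, for the centromeric H3 variant, scored 700.4. The H1-like genes hil-7 and hil-3 scored 121 and 46.1. Neither had a promoter entry in replicate 1, whereas htz-1 and hcp-3 had entries there with a −log10 q of 3.22. No reproducible promoter peak was found at hil-1, hil-2 or hil-4.

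Histone chaperones had reproducible promoter peaks at 9 of 13 genes (69.2%), beside 14.8% of all genes, with a median score of 278. The strongest was emb-5, the Spt6 homologue, at 2215, followed by lin-53, a histone-binding protein and DREAM subunit, at 1188. The subunits of chromatin assembly factor 1 followed, chaf-2 at 587 and chaf-1 at 424. hira-1, for the H3.3 chaperone HIRA, scored 278, the Asf1 homologue unc-85 199 and nap-1 196. The FACT subunits hmg-4 and spt-16 scored 101 and 55.7. In replicate 1 the promoter entries of hmg-4 and spt-16 had a −log10 q of 0.842 and 0.467, under the value of 2 used above. The other chaperone genes with a peak had replicate 1 values over 2. The lin-53 peak also lay in the promoter of nra-2, that of chaf-2 in the promoter of Y71G12B.30, that of hmg-4 in the promoter of T20B12.3 and that of nap-1 in the promoter of praf-3. asfl-1, rba-1 and hmg-3 had none.

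Of 4 genes for the processing of histone mRNA 3' ends, 3 (75%) had a reproducible promoter peak, beside 14.8% of all genes. cdl-1, which encodes the stem-loop binding protein of histone mRNAs, had its summit 161 bp upstream of the start and a score of 1873, at rank 159. It scored 304 in replicate 1 and 1572 in replicate 2. Symplekin, symk-1, whose peak also lay in the promoter of F25G6.9, scored 225 and cpsf-2 98.0, and cpsf-3 had none. In replicate 1 the entry of cpsf-2 had a −log10 q of 0.21, while those of cdl-1 and symk-1 were over 2. The cdl-1 score was thus above that of every his gene in each of the lists.

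**Figure D5:**
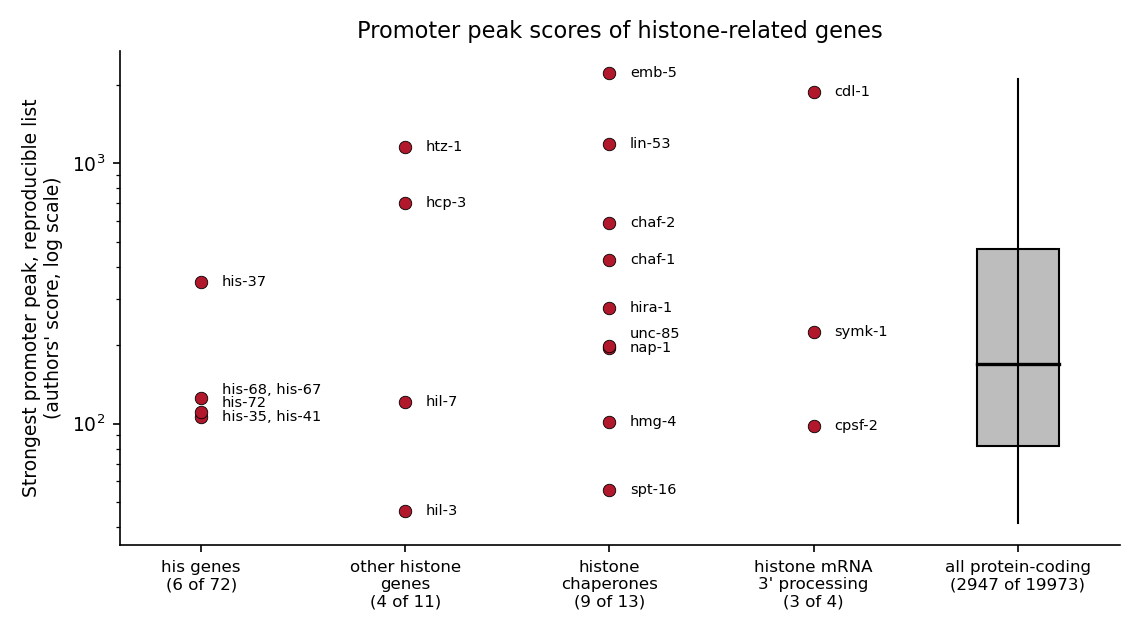
Authors' score of the strongest reproducible promoter peak (log scale) for his genes, other histone genes, histone chaperones and histone mRNA 3' processing genes, with the number of genes with a peak under each name. The grey box marks the quartiles and the line the 5th to 95th percentile of all 2947 protein-coding genes with a peak, whose median is 169; the his genes span 106 to 349.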

How the data were processed

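Peak lists from 2 libraries of 1 group were used as deposited. Per the text files deposited with them, the authors made lists of peaks and background from each replicate's alignment and from both pooled, with a control alignment, and derived the reproducible list from these 3 by the irreproducible discovery rate. No peak caller, aligner, read length or rate threshold is given in the sources used here. The control and signal files were not analysed here. The score of each entry, the −log10 of its q-value and its summit offset (another value, in bp) are the authors' deposited columns. The lists hold no read counts, so the depth was unknown and no interval could be given.

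Genes and starts came from Ensembl release 115 of WBcel235. Ensembl gives 36 his genes a symbol shared with another, so symbols and histone classes came from RefSeq by gene identifier, which gave 72 distinct symbols. Sequence came from the RefSeq genome of the same assembly. Computation used Python 3.11.15, pandas 2.3.3 and numpy 2.4.6. Promoter assignment was tested on simulated data, where 200 of 200 planted summits were recovered among 19973 genes. No test was run, since there is 1 group. Members and lists were chosen with earlier results of these data known. Named were all his genes with a reproducible promoter peak, all isolated, H1 and H3.3-type genes, clusters by their members, the strongest 3 without such a peak, and the other lists' members with a peak and up to 3 without one. Alternatives were other windows, cluster distances, assignment rules and lists.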

Additional observations from a re-analysis of the deposited data

How the results depend on the processing

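The count of 0 reproducible promoter peaks in clusters of 4 or more genes was 0 under each of the other windows, lists and assignment rules tried. The full pooled list was not among these, and it had a promoter entry at 6 of the 58 genes. In 43 of the 58, under 50% of the 36-base words were unique and no list had a promoter entry. The other settings therefore say little about those 43 genes. With a chaining distance of 20 kb, 4 of 13 clusters held a reproducible summit, against 3 of 14 at 5 kb. These spans included 500 bp on either side. The summit counted for his-69 and his-70 was that of the rcq-5 promoter, and neither gene had a promoter entry in any list. Without the margin, reproducible peaks overlapped 2 of the 14 spans. For all his genes the count of 6, beside 14.8% of all genes, became 1 when support in each replicate was required. That rule was added after seeing the data, and 6.93% of all genes met it. The count ranged from 3 to 7 with the strongest 3824 entries of 1 replicate in place of the reproducible list. Replicate 2 decides these counts. Without replicate 2 the genes were his-37, his-67 and his-68, beside 11.8% of all genes. Without replicate 1 his-24 was added to the 6, beside 14.8% of all genes. Clustered genes numbered 5, with 3 when each summit was given to its nearest start, 1 with support in each replicate and 3 to 5 without a replicate. The nearest-start rule left a peak at 4 of all 72 his genes and at 11.3% of all genes. Isolated genes numbered 1, with 0 under that support and 0 to 2 without a replicate. For the his genes outside the large clusters the count of 6 became 1 under that support and ranged from 3 to 7 without a replicate. The 14 genes with a pooled entry, beside 33.2% of all genes, became 8 without replicate 2, beside 30.1%. They became 16 without replicate 1, beside 33.9% of all genes. The median score of 118 was 111 with each peak counted once, the weaker his-72 peak included. No paired analysis was possible because the series holds 1 group. Without read counts, a weak or absent entry cannot be told from low depth, and how reads from repeated promoters were handled is unknown.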
